A study of Homo sapiens with 16 samples.

Results

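The comparison described here is that of poly(A) RNA from HMC3 cells labelled METTL3 knockout with poly(A) RNA from wild-type HMC3 cells, made from 5 libraries of each genotype. HMC3 is an established human line that the labels call microglial. METTL3 is the catalytic subunit of the enzyme complex that methylates adenosine in RNA at position N6 (the mark m6A). The genes described are the rows of the authors' deposited table of this comparison that have a symbol and a mean normalized count of at least 50 over the 10 libraries, which are 5257 of 60669 rows, and the 7 rows above that mean without a symbol were left out. The libraries were built with the Smart-seq2 protocol, which primes reverse transcription on the poly(A) tail, from 100 ng of total RNA. No treatment or time point is given for either genotype, and the labels do not say how the knockout was made or whether the line is a single clone. A further 3 wild-type and 3 knockout-labelled libraries, made after removal of ribosomal RNA with a directional kit, were used as a second measurement of the same contrast.

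m6A is placed on nascent messenger RNA by a complex in which METTL3 pairs with METTL14. Reader proteins of the YTH family bind it, and the mark is best known for shortening the life of messages through recruitment of the CCR4-NOT deadenylase. Cells that lack m6A are known to form more double-stranded RNA, which sensors such as RIG-I, MDA5 and PKR recognise. Activation of these sensors leads through interferon and the kinases JAK1 and TYK2 to genes whose promoters hold an interferon-stimulated response element. ZBP1, which the title of the series names, binds nucleic acid in the left-handed Z form and can trigger necroptosis.

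The targeted gene was examined first. The authors' deposited table lists METTL3 (ENSG00000165819) with 144 mean normalized counts and a log2 fold change of 0.09 (SE 0.11), adjusted p 0.654. After rRNA depletion METTL3 reached 31.2, 31.6 and 25.4 TPM in wild type and 39.2, 40 and 42.7 TPM in the libraries labelled knockout. The groups did not overlap and the knockout-labelled libraries were higher, as they were for 63.1% of the genes described here. The knockout label therefore went with no loss of METTL3 mRNA in either library type and could not be checked by it, and "knockout" below stands for the libraries labelled so. ZBP1 was close to absent from the poly(A) libraries: the authors' deposited table lists it at 0.0374 mean normalized counts without an adjusted p, and it was listed at 0 in all 6 rRNA-depleted libraries.

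The table does not say which genotype is the numerator of its log2 fold changes. A positive value is read here as higher in knockout, since the table carries the knockout in its name. All 10 of the genes with the largest positive change were also higher in the knockout-labelled rRNA-depleted libraries, whose columns carry their genotype. However, 77.8% of the genes described and tested there were above 0. Of the 10 genes with the largest negative change, 5 had the same sign there, so these signs alone do not settle the numerator. If wild type were the numerator, every poly(A) direction below would be opposite. Values of single libraries are not part of this table, so its changes are given with their standard error (SE) and adjusted p and could not be retested. Nothing in the labels says that the 5 libraries of a genotype came from separate cultures, so the p-values measure the spread between these libraries, which may be technical. In bulk RNA, fewer cells of a kind and less RNA per cell cannot be told apart.

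The labelled cell type was set against its markers. Of 18 markers of microglia, 11 were listed at 0 and 17 had a mean normalized count under 10 in the authors' deposited table, among them AIF1, CX3CR1, TMEM119, ITGAM, PTPRC and SPI1 at 0. Of 12 markers of pericytes and mesenchymal cells, 8 passed the mean of 50 in the authors' deposited table, with COL1A1 highest at 1092. COL3A1 was at 0. Among these 8, THY1 rose by 0.58 (SE 0.06) and VIM by 0.49 (SE 0.07), while MCAM fell by 0.66 (SE 0.10), S100A6 fell by 0.84 (SE 0.12) and TAGLN fell by 1.18 (SE 0.10) on the log2 scale of the authors' deposited table. Of the markers of astrocytes, neurons, oligodendrocytes and endothelial cells, 0 reached the mean of 50. Among the epithelial markers only KRT18 did, at a mean of 725 in the authors' deposited table.

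Over all 14009 genes for which the authors' deposited table gives an adjusted p, 2782 (19.9%) were under 0.05. Among the 5257 genes described here the same threshold was passed by 1869 (35.6%), of which 883 rose (16.8%) and 986 fell (18.8%) in knockout. Most of these changes were small. Of the called genes, 55.8% moved by less than 0.5 on the log2 scale, and the median size was 0.49 for those that rose and 0.46 for those that fell. A log2 change of at least 1, which is a 2-fold change, was reached by 86 genes that rose (1.64%) and 26 that fell (0.495%), and a change of at least 2 by 15 that rose and 3 that fell. The median log2 fold change of all 5257 genes was 0.00, with a 5th percentile of -0.59 and a 95th of 0.62, and the median SE was 0.13. These genes hold 92.2% of the sum of the mean normalized counts of the table, and 5212 of them are protein coding. At the edge of the selection, CCDC15 lay just outside with a mean of 49.99 and a log2 fold change of 0.23 (adjusted p 0.437) and ZNF830 just inside with a mean of 50.01 and a log2 fold change of -0.10 (adjusted p 0.749) in the authors' deposited table.

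**Figure D1:**
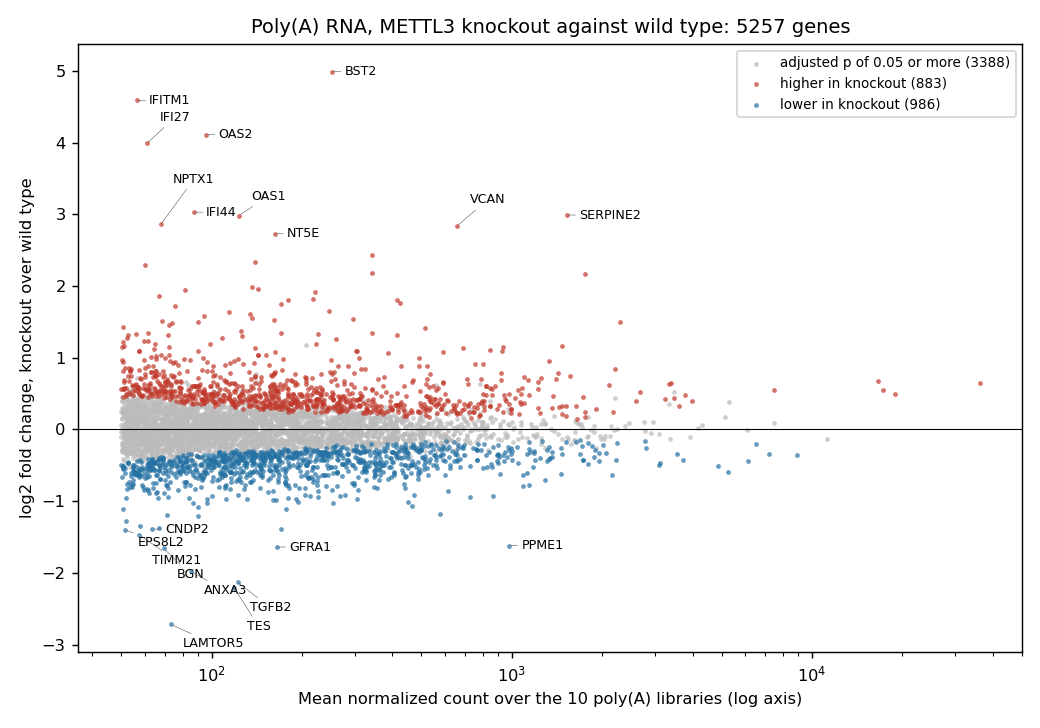
Log2 fold change (knockout over wild type) against the mean normalized count on a log axis for the 5257 genes, from the authors' deposited table; each point is a gene, coloured by whether its adjusted p is under 0.05. The 883 genes that rose reach 4.99 (BST2), the 986 that fell reach -2.72 (LAMTOR5), and the 10 largest in each direction are named.

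The 10 genes that rose most were BST2, IFITM1, OAS2, IFI27, IFI44, SERPINE2, OAS1, NPTX1, VCAN and NT5E, with log2 fold changes from 4.99 (BST2) to 2.73 (NT5E) in the authors' deposited table. BST2 (tetherin, which holds budding virus at the cell surface), IFITM1 (which blocks viral fusion), OAS1 and OAS2 (synthetases of the 2-5A messenger that activates RNase L), IFI27 and IFI44 are interferon-stimulated genes. SERPINE2 (protease nexin-1, a secreted inhibitor of thrombin and plasminogen activators) and VCAN (versican, a large matrix proteoglycan) belong to the extracellular matrix. NT5E (CD73) makes adenosine from AMP outside the cell, and NPTX1 is a secreted pentraxin of neurons. The 10 genes that fell most were LAMTOR5, TES, TGFB2, ANXA3, BGN, GFRA1, PPME1, TIMM21, EPS8L2 and CNDP2, from -2.72 (LAMTOR5) to -1.39 (CNDP2) in the authors' deposited table. They have no shared pathway among the lists used here. LAMTOR5 is a subunit of the Ragulator complex on lysosomes, TES a LIM protein of focal adhesions, TGFB2 a ligand of the TGF-beta receptors, BGN (biglycan) a matrix proteoglycan, GFRA1 the GDNF co-receptor, PPME1 a methylesterase of protein phosphatase 2A and TIMM21 a part of the mitochondrial import machinery.

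Interferon-stimulated genes made up 34 of the 86 genes that rose by at least 1 (39.5%), against 67 of the 5257 (1.27%) that the 6 interferon lists hold. Of the 26 genes that fell by at least 1, 0 were in those lists, and 9 (34.6%) were in the matrix, cytoskeleton and signalling lists, which hold 171 of the 5257 (3.25%). These lists were drawn up with earlier results of these libraries known, so their shares are a description.

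The antiviral effectors were the list with the highest median change among the 50 lists with at least 5 genes. Of 30 such genes, 29 rose and 0 fell, with a median log2 fold change of 1.42 against 0.00 for all genes. BST2 had a mean normalized count of 252 and was 31.8-fold higher in the authors' deposited table, a log2 fold change of 4.99 (SE 0.22, adjusted p 2.35e-113). IFITM1, with a log2 fold change of 4.59 (SE 0.38, adjusted p 1.64e-30), and OAS2, with 4.11 (SE 0.24, adjusted p 1.46e-62), followed in the authors' deposited table. The gene of the list with the highest mean, IFITM3 at 2296 normalized counts, rose by 1.5 (SE 0.13, adjusted p 1.63e-28) in the authors' deposited table. Only APOBEC3B, a cytidine deaminase, missed the threshold, with 0.17 (SE 0.15, adjusted p 0.478) in the authors' deposited table.

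Single-library values for these genes are available from the rRNA-depleted libraries. The mitochondrial ribosomal RNA MT-RNR2 stood at 9650, 7627 and 10499 TPM there in wild type and 439, 437 and 493 TPM in knockout, and MT-RNR1 at 5502, 4664 and 6420 TPM against 253, 365 and 305 TPM. Both rose in poly(A) RNA, by 0.65 (SE 0.12) and 0.72 (SE 0.12) in the authors' deposited table, so the 2 sets of rRNA-depleted libraries differ in mitochondrial ribosomal RNA, and its part in the TPM comparisons was not tested. BST2 gave 38, 37 and 42.8 TPM in wild type against 291, 277 and 323 TPM under the knockout label. The groups lay far apart, with means of 39.3 ± 3.11 TPM (SD, n = 3) and 303 ± 28 TPM (SD, n = 2, libraries 1 and 2 counted as 1 sample) and a limma adjusted p of 0.000872. OAS2 was at 1.13, 0 and 0 TPM in wild type against 35.3, 34.5 and 28.9 TPM, and OAS1 at 1.43, 0 and 0 TPM against 35.2, 33.8 and 36.6 TPM. IFITM1 was at 6.56, 0 and 5.54 TPM in wild type against 49.7, 33 and 35.9 TPM, and IFI44 at 0, 5.08 and 5.88 TPM against 55.9, 48.4 and 50.7 TPM. In each of these genes every knockout-labelled library was above every wild-type one, as in 63.1% of all genes described. IFI27 was lower throughout, at 1.71, 0 and 0 TPM against 6.47, 13.2 and 3.11 TPM, and its limma adjusted p was 0.0615. Of the 29 that rose in poly(A) RNA, 20 also rose by limma in the rRNA-depleted libraries (16 with median ratio scaling), where 43.1% of all genes described rose and 9.29% fell. The list had 3 that fell there: IFI6, an inhibitor of apoptosis induced by interferon, at -0.76 (limma adjusted p 0.0058), APOBEC3C at -1.87 (limma adjusted p 0.00407) and PML at -0.88 (limma adjusted p 0.0213). Those 3 were picked out after their values were seen.

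Promoters of 5 antiviral effectors are shown because they hold the letters of the response element through which interferon acts. Each is the window from 250 bases before to 50 bases after the first start listed in RefSeq (GRCh38.p14), read 5′ to 3′ on the strand of the gene. Capitals mark every match, on either strand, to the core of the element (ISRE), which was searched as GAAA, any 2 bases and GAAA again. A match on the other strand starts and ends in TTTC.
BST2: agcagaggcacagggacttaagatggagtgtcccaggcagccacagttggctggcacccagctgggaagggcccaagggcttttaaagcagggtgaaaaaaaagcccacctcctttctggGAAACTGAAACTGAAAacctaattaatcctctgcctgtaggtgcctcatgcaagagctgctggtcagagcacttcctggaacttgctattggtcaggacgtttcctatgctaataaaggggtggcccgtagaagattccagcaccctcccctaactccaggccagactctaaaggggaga
IFITM1: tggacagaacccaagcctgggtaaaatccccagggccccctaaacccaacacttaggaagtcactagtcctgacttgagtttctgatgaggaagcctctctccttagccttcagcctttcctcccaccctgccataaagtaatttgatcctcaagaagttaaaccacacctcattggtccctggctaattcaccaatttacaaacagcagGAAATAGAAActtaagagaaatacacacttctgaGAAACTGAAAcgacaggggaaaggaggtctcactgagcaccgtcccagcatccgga
IFI27: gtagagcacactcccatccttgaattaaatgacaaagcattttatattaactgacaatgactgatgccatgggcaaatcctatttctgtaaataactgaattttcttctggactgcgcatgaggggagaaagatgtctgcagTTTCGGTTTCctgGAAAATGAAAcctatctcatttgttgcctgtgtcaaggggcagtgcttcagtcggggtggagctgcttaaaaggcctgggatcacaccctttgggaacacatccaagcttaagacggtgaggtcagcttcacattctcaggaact
IFI44: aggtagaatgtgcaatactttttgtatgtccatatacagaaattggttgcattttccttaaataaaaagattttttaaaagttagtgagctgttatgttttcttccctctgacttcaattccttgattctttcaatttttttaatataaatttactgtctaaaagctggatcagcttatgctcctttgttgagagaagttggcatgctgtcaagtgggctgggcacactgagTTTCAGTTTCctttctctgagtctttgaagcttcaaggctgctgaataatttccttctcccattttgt
IFIT1: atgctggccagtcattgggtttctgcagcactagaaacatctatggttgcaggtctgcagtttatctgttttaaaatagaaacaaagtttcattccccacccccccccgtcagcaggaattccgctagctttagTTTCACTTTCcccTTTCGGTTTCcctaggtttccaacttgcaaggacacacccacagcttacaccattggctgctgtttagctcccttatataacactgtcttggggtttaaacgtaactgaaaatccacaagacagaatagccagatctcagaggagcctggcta
The windows are chr19:17405581-17405880 (minus strand) for BST2, chr11:313790-314089 (plus strand) for IFITM1, chr14:94110486-94110785 (plus strand) for IFI27, chr1:78649539-78649838 (plus strand) for IFI44 and chr10:89392373-89392672 (plus strand) for IFIT1. They are the 5 antiviral effectors with the largest rise among those that hold a match. OAS1, which rose more than IFIT1, has an entry without a match, and OAS2 has no entry. In BST2 the capitals are 2 overlapping matches that begin 130 and 124 bases before the start. IFITM1 holds 2 that begin 40 and 6 bases before it, IFI27 2 at 108 and 95 bases, IFI44 1 at 18 bases and IFIT1 2 at 116 and 103 bases.

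A match was found in 18 of the 23 antiviral effectors with an entry in the promoter table (78.3%). The share was 3.65% of all 27305 promoters and 3.22% of the 4404 genes described here that have an entry. Among those that rose by at least 1 it was 24 of 70 (34.3%), and outside the interferon lists 3 of 40 (7.5%). Genes that rose by any amount had it in 6.8%, genes that fell in 3.06% and genes that did not pass the threshold in 2.36%. The letters TTCNNNGAA of the interferon gamma-activated site (GAS) were in 7 of the 23 (30.4%) against 7.88% of all promoters. The other motifs searched on both strands were the NF-kB element (GGGA, any 2 bases and TTCC), the TEAD letters GGAATG, the E2F letters TTTGGCGC, the CCAAT box, TGANTCA for AP-1 and TGACGTCA for CRE. Among genes that fell, their shares were 1.06%, 11.4%, 1.29%, 40%, 5.29% and 3.76%, against 1.48%, 11.1%, 1.29%, 39.7%, 4% and 3.88% of all described genes with an entry. A match is a run of letters, and factor binding was not measured.

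Sensors of foreign nucleic acid rose as well, 7 of 8 with a median log2 fold change of 1.07. RIGI, which detects RNA ends that carry a triphosphate, rose by 2.33 (SE 0.14, adjusted p 3.43e-61), the helicase DDX60 by 1.72 (SE 0.20) and the DNA sensor IFI16 by 1.37 (SE 0.13) in the authors' deposited table. ADAR, the adenosine deaminase that edits double-stranded RNA, had the highest mean of the list, 532, and rose by 0.77 (SE 0.09, adjusted p 1.13e-14) in the authors' deposited table. The exception was MAVS, the mitochondrial adaptor downstream of RIG-I, at -0.00 (SE 0.15) in the authors' deposited table. RIGI gave 6.51, 9.51 and 2.75 TPM in wild-type rRNA-depleted libraries against 80.8, 97.5 and 77.1 TPM in the knockout-labelled ones, and IFI16, listed at 0 in all 3 libraries of wild type, reached 41.2, 45.5 and 34.2 TPM under the knockout label. EIF2AK2 (PKR), picked out after its values were seen, went opposite ways, with 1.26 (SE 0.09) in the authors' deposited table and -1.05 (limma adjusted p 0.00342) in the rRNA-depleted libraries.

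In the signalling chain from receptor to nucleus, 3 of 6 genes rose. Among them the kinase gene JAK1 rose by 0.63 (SE 0.16, adjusted p 0.000784) and STAT2 by 0.62 (SE 0.17, adjusted p 0.00355) in the authors' deposited table. The receptor chains IFNAR1 (-0.05, SE 0.12) and IFNGR1 (0.17, SE 0.13) and the factor STAT3 (-0.17, SE 0.11) did not pass the threshold in the authors' deposited table. Of the 25 cytokines and chemokines listed, interferons included, 0 reached the mean of 50.

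ISG15 is a ubiquitin-like protein that is joined to other proteins during an interferon response. All 5 genes of this pathway rose, with a median of 1.08. The ligases HERC6 and HERC5 rose by 1.86 (SE 0.19) and 1.5 (SE 0.15), the conjugating enzyme UBE2L6 by 1.08 (SE 0.11) and ISG15 itself by 0.97 (SE 0.15, adjusted p 1.79e-08) in the authors' deposited table. In the rRNA-depleted libraries ISG15 was at 466, 571 and 705 TPM in wild type and at 505, 532 and 638 TPM in knockout, so the groups overlapped (limma adjusted p 0.986). The ADP-ribosyltransferases PARP9 and PARP14 and the PARP9 partner DTX3L rose by 1.80 (SE 0.12), 1.35 (SE 0.19) and 1.64 (SE 0.15) in the authors' deposited table. All 3 rose by limma in the rRNA-depleted libraries, as did 43.1% of all genes described.

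Antigen presentation by MHC class I had 12 of 16 genes up and 2 down, with a median of 0.67 that became 0.24 for genes with a mean of at least 200. The heavy chain HLA-B rose by 1.75 (SE 0.11, adjusted p 8.48e-58), the immunoproteasome subunit PSMB9 by 1.15 (SE 0.20), HLA-C by 0.98 (SE 0.10) and the light chain B2M, at a mean of 2209, by 0.84 (SE 0.09) in the authors' deposited table. The endoplasmic reticulum chaperones CANX and CALR fell by 0.23 (SE 0.06) and fell by 0.22 (SE 0.07) in the authors' deposited table. HLA-B was at 209, 199 and 137 TPM in wild-type rRNA-depleted libraries and at 80.1, 78.2 and 90.1 TPM in the knockout-labelled ones, so it was lower there without overlap. B2M was at 26.8, 20.4 and 24.6 TPM against 212, 214 and 169 TPM, higher without overlap. Among all genes described 13.8% were lower and 63.1% higher without overlap. Over the list, 6 genes rose and 4 fell by limma in the rRNA-depleted libraries, or 5 and 6 with median ratio scaling. HLA heavy chains are near-identical copies of each other, and reads may be shared between them in ways that depend on how they were counted.

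Inflammatory and death pathways gave both directions. In the NF-kB pathway 3 of 5 genes rose and 1 fell. The adaptor TRAF6 rose by 0.68 (SE 0.17), the kinase CHUK by 0.57 (SE 0.10) and BIRC2 by 0.38 (SE 0.10), while TRAF2 fell by 0.57 (SE 0.15) in the authors' deposited table. The median of this list was 0.38, and it turned to -0.25 when genes with a mean of at least 10 were taken and was 0.24 relative to genes of like length and GC content. Of 16 genes of necroptosis and pyroptosis, 3 reached the mean of 50, of which GSDME fell by 0.59 (SE 0.19, adjusted p 0.0157) and RIPK1 was at 0.29 (SE 0.13, adjusted p 0.105) in the authors' deposited table. Among 10 BCL2 family genes, the BH3-only gene PMAIP1 rose by 0.43 (SE 0.15), and 2 fell: BCL2L1, which encodes the survival factor BCL-XL, fell by 0.87 (SE 0.10, adjusted p 2.89e-15) and BNIP3 fell by 0.61 (SE 0.08) in the authors' deposited table. Of 11 targets of p53, 3 rose, led by CCNG1 at 0.91 (SE 0.08), and CDKN1A (p21) fell by 0.51 (SE 0.07, adjusted p 8.75e-10) in the authors' deposited table. The shares that passed were 33.3% for necroptosis and pyroptosis, 30% for the BCL2 family and 36.4% for p53 targets. They lay near or under the 35.6% of all genes described.

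**Figure D2:**
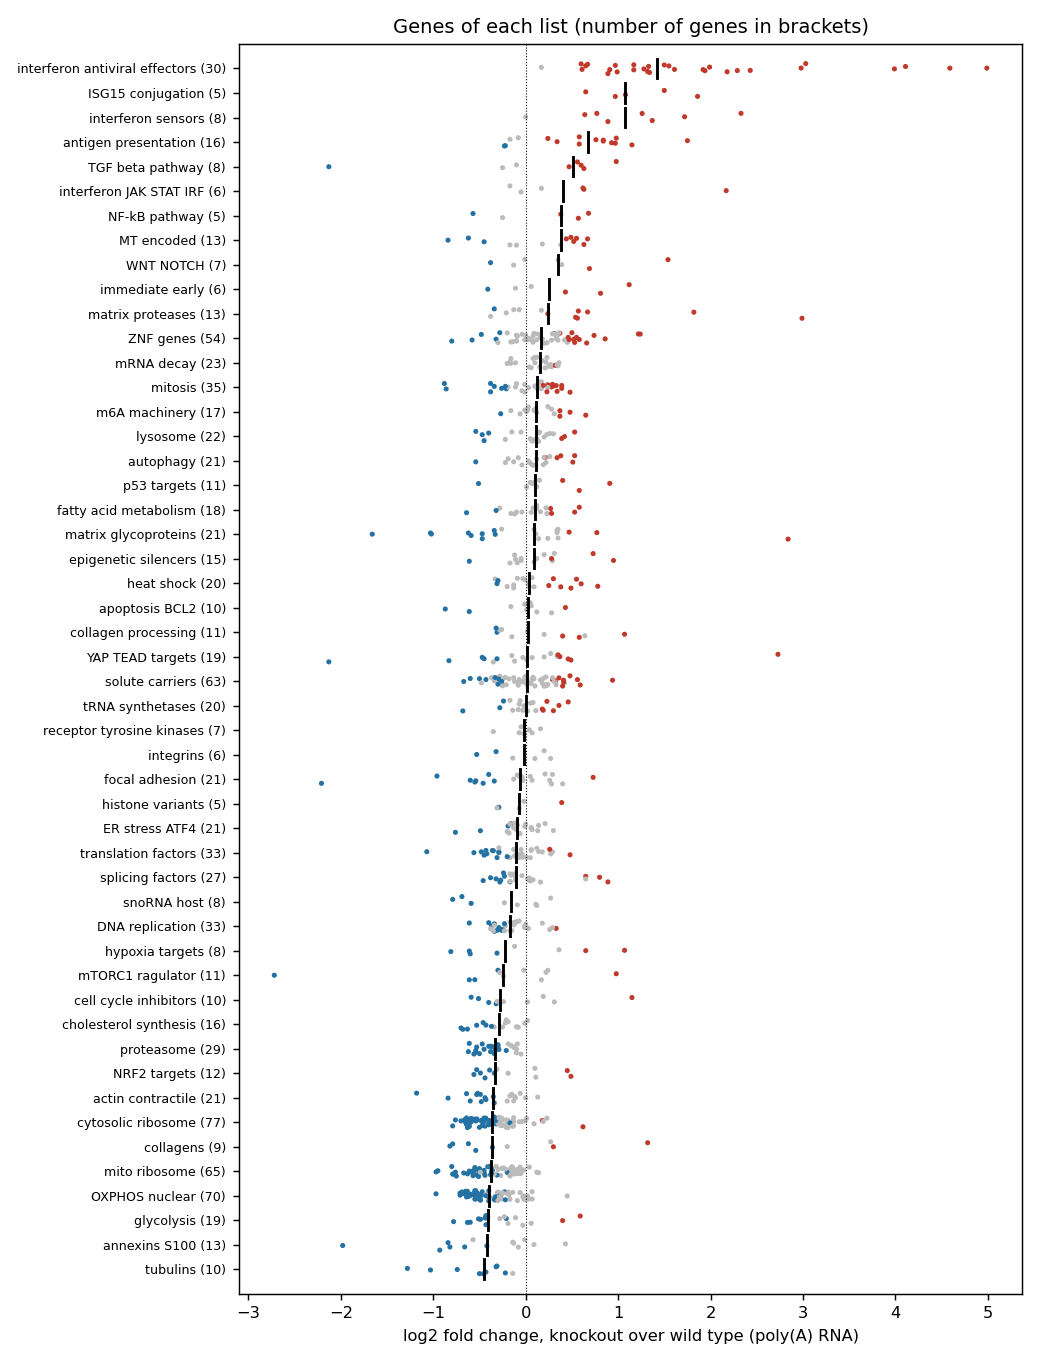
Log2 fold changes (knockout over wild type) from the authors' deposited table for each gene of the 50 lists with at least 5 genes; red points rose and blue points fell at an adjusted p under 0.05, grey points did not pass, and black bars are list medians. The antiviral effectors stand at the top with a median of 1.42 and the tubulins at the bottom with -0.45.

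The extracellular matrix changed gene by gene. Among 9 collagen genes 2 rose and 5 fell, with a median of -0.36, which was -0.16 at a mean of at least 10 and -0.53 relative to genes of like length and GC content. COL8A1 fell by 0.82 (SE 0.09), COL1A1 fell by 0.79 (SE 0.09, adjusted p 2.65e-15) and COL4A1 fell by 0.62 (SE 0.16), while COL6A2 rose by 1.32 (SE 0.21) and COL1A2 by 0.30 (SE 0.08) in the authors' deposited table. All 9 were lower by limma in the rRNA-depleted libraries, where COL1A1 was at 10400, 9612 and 11995 TPM in wild type and at 749, 799 and 865 TPM in knockout. That drop, -3.70 on the log2(TPM + 1) scale (limma adjusted p 0.000689), was larger than the one in poly(A) RNA, and the difference between library types was not tested. Among enzymes that process collagen, the crosslinking enzyme LOX rose by 1.07 (SE 0.09, adjusted p 1.31e-32) and its relative LOXL2 fell by 0.32 (SE 0.09) in the authors' deposited table.

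Of 21 matrix glycoproteins and proteoglycans, 3 rose and 9 fell, with a median of 0.09 that turned to -0.12 at a mean of at least 200, -0.07 relative to like length and -0.06 relative to like length and GC content. VCAN rose by 2.84 (SE 0.22, adjusted p 2.71e-34), and BGN fell by 1.66 (SE 0.18), TGFBI fell by 1.03 (SE 0.13) and the syndecan SDC4 fell by 1.02 (SE 0.08) in the authors' deposited table. Fibronectin (FN1), the most abundant of the list with a mean of 7179, fell by 0.34 (SE 0.11, adjusted p 0.0121) in the authors' deposited table. VCAN was at 3.82, 6.28 and 7.27 TPM in wild type and at 44.1, 44.3 and 43.1 TPM in the knockout-labelled rRNA-depleted libraries. BGN went the other way there, from 49.1, 25.3 and 36.6 TPM to 107, 114 and 86.9 TPM (limma adjusted p 0.0201).

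Proteases of the matrix and their inhibitors had 7 of 13 genes up and 1 down. SERPINE2 rose by 2.99 (SE 0.07) at a mean of 1524, and its adjusted p is listed as 0 in the authors' deposited table. The urokinase gene PLAU rose by 1.82 (SE 0.10, adjusted p 2.65e-74) and PLAT (tissue plasminogen activator) by 0.67 (SE 0.09) in the authors' deposited table, and ADAMTS1 fell by 0.34 (SE 0.10). SERPINE2 was at 11.2, 16.3 and 14.8 TPM in wild type and at 168, 159 and 159 TPM in the knockout-labelled rRNA-depleted libraries, and PLAU at 28.8, 21 and 32.5 TPM against 109, 120 and 96.3 TPM. Both were higher in every knockout-labelled library than in every wild-type one, as were 63.1% of all genes described.

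Growth factor pathways gave mixed directions. In the TGF-beta pathway 5 of 8 genes rose, with a median of 0.51: INHBA, a subunit of activin, rose by 0.98 (SE 0.15), the target ID2 by 0.63 (SE 0.12), the receptor BMPR2 by 0.60 (SE 0.15) and SMAD5 by 0.47 (SE 0.10) in the authors' deposited table. The ligand TGFB2 fell by 2.13 (SE 0.12, adjusted p 6.99e-65) in the authors' deposited table. In the rRNA-depleted libraries TGFB2 was at 11, 12.1 and 15.1 TPM in wild type and at 15.6, 17.5 and 30.1 TPM in knockout, slightly higher without overlap and with a limma adjusted p of 0.147. Among all genes described 63.1% were higher without overlap there. The 19 targets and members of the YAP and TEAD pathway split into 5 up and 5 down, with NT5E at 2.73 (SE 0.19) and ANKRD1 at -0.83 (SE 0.18) in the authors' deposited table, and CCN1, the most abundant, fell by 0.47 (SE 0.08). In the WNT and NOTCH list 2 of 7 rose, the secreted WNT antagonists SFRP1 by 1.54 (SE 0.13, adjusted p 1.51e-30) and DKK3 by 0.69 (SE 0.07), and CTNNB1 fell by 0.38 (SE 0.14) in the authors' deposited table. The share that passed was 42.9%, against 35.6% of all genes described. Of 6 immediate early genes 3 rose, led by the ERK phosphatase DUSP6 at 1.12 (SE 0.18) in the authors' deposited table. Of 7 receptor tyrosine kinases and their ligands 0 passed the threshold, and FGF5, the most abundant, was at -0.07 (SE 0.06) in the authors' deposited table.

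Among genes of the cytoskeleton and its anchors, the tubulins had the largest share called. Of 10 tubulin genes 9 fell and 0 rose, with a median of -0.45 (-0.29 relative to genes of like length and GC content). TUBA4A fell by 1.28 (SE 0.16), TUBB2A fell by 1.03 (SE 0.14), TUBB2B fell by 0.74 (SE 0.19) and TUBB, the most abundant at 3102, fell by 0.50 (SE 0.05) in the authors' deposited table. Of 21 actins and contractile proteins 12 fell and 0 rose, with a median of -0.35 (-0.21 on that relative scale), TAGLN at -1.18 (SE 0.10), the myosin light chains MYL9 at -0.84 (SE 0.08) and MYL6 at -0.64 (SE 0.10), and ACTG1, the most abundant at 8883, at -0.35 (SE 0.08) in the authors' deposited table. Annexins and S100 proteins had 6 of 13 down and 0 up, with a median of -0.42 (-0.27 on that relative scale), led by ANXA3 at -1.98 (SE 0.15) and S100A11 at -0.93 (SE 0.12) in the authors' deposited table. Among 21 focal adhesion genes 8 fell and 1 rose: TES fell by 2.21 (SE 0.13, adjusted p 9.01e-63), LIMS2 fell by 0.96 (SE 0.24), and ZYX rose by 0.73 (SE 0.27, adjusted p 0.0387) in the authors' deposited table. Integrin genes moved little, with ITGAE and ITGA3 down among 6 and ITGB1 at -0.14 (SE 0.06, adjusted p 0.0547) in the authors' deposited table. The shares that passed were 42.9% for focal adhesion and 33.3% for integrins, not far from the 35.6% of all genes described.

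These groups were then followed into the rRNA-depleted libraries. TES was at 104, 102 and 53.2 TPM in wild type and at 18.8, 12.8 and 12.1 TPM in knockout, lower without overlap (limma adjusted p 0.00624). TUBB was at 746, 789 and 704 TPM against 2314, 2382 and 2405 TPM, higher without overlap. Of the 9 tubulin genes that fell in poly(A) RNA, 5 rose and 1 fell by limma in the rRNA-depleted libraries, and of the 6 annexin and S100 genes that fell, 5 rose and 0 fell. Of the 8 focal adhesion genes that fell, TES included, 1 rose and 1 fell there. Among all 985 tested genes that fell in poly(A) RNA, 35.5% rose and 17% fell there. With median ratio scaling 4 of these tubulin genes, 4 of these annexin and S100 genes and 0 of these focal adhesion genes rose. For actins and contractile proteins the rRNA-depleted median was 0.20, and -0.22 relative to the median of all genes tested, so its direction there depends on the scaling.

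Of 19 glycolytic genes 11 fell and 2 rose, with a median of -0.41. The aldolase gene ALDOA fell by 0.78 (SE 0.11, adjusted p 2.98e-11), ENO2 fell by 0.63 (SE 0.12), the glucose transporter SLC2A1 fell by 0.60 (SE 0.10) and GAPDH, at a mean of 6486, fell by 0.21 (SE 0.04), while SLC2A3 rose by 0.59 (SE 0.13) and GPI by 0.40 (SE 0.12) in the authors' deposited table. ALDOA was at 457, 508 and 401 TPM in wild type and at 401, 459 and 481 TPM in knockout after rRNA depletion, overlapping. Of 8 hypoxia targets 4 fell, with the peptide hormone gene ADM at -0.81 (SE 0.10), and 2 rose in the authors' deposited table. Cholesterol synthesis had 7 of 16 genes down and 0 up, led by ACAT2 at -0.70 (SE 0.08), FDPS at -0.68 (SE 0.11) and EBP at -0.63 (SE 0.14) in the authors' deposited table. In fatty acid metabolism 4 of 18 rose and 2 fell, the desaturases SCD at -0.64 (SE 0.08) and FADS1 at -0.32 (SE 0.07) in the authors' deposited table. That is 33.3% of the list, and cholesterol synthesis had 43.8% past the threshold, against 35.6% of all genes described.

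Nuclear genes of oxidative phosphorylation were among the most uniform lists: 41 of 70 fell and 0 rose, with a median of -0.40 and 64 of the 70 below 0. COX6A1 fell by 0.97 (SE 0.19), NDUFB10 fell by 0.71 (SE 0.14) and COX8A fell by 0.71 (SE 0.23), while ATP5F1B, the most abundant at 2774, was at -0.02 (SE 0.05) in the authors' deposited table. These are short messages, with a median transcript length of 972 bases against 2969 for all genes described, and relative to genes of like length and GC content the median of the list was -0.23. COX6A1 was at 5.27, 23.1 and 8.91 TPM in wild type and at 49.9, 40.8 and 72.1 TPM in knockout after rRNA depletion, opposite to its poly(A) change. For so short a message, such wild-type values rest on few reads at the depth of these libraries. In those libraries 34 of the 70 rose and 8 fell by limma, or 29 and 14 with median ratio scaling. The 13 messages of the mitochondrial genome split into 6 up and 3 down with a median of 0.38 (0.62 relative to genes of like length): MT-ND2 rose by 0.67 (SE 0.17), MT-ND1 by 0.63 (SE 0.09), MT-ND5 by 0.55 (SE 0.09) and MT-ND4 by 0.49 (SE 0.13), and MT-ND3 fell by 0.84 (SE 0.22), MT-CO3 fell by 0.62 (SE 0.10) and MT-ATP8 fell by 0.45 (SE 0.12) in the authors' deposited table. MT-ND4 was at 1275, 1021 and 878 TPM in wild type and at 7660, 7454 and 8956 TPM in the knockout-labelled rRNA-depleted libraries. Most messages of this list rose there whatever their poly(A) direction. By limma 11 of the 13 rose and 1 fell. Of the 3 that fell in poly(A) RNA 2 rose there, and of the 6 that rose 5 rose and 1 fell.

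Stress pathways gave no single direction, and the first list below had 19% of its genes past the threshold, against 35.6% of all genes described. Of 21 genes of the endoplasmic reticulum stress and ATF4 response 4 fell and 0 rose, with SDF2L1 at -0.76 (SE 0.17) and HSPA5 (BiP), the most abundant at 2783, at -0.16 (SE 0.05, adjusted p 0.014) in the authors' deposited table. Among 20 cytosolic and mitochondrial chaperones 7 rose and 2 fell: DNAJB4 rose by 0.78 (SE 0.10), DNAJB1 by 0.60 (SE 0.11) and HSP90AA1 by 0.55 (SE 0.06), and the chaperonin genes CCT2 and CCT3 fell by 0.31 (SE 0.06) and fell by 0.30 (SE 0.06) in the authors' deposited table. The 7 that rose also rose by limma in the rRNA-depleted libraries, and 5 of them did with median ratio scaling. Of all 20 chaperones, however, 17 rose and 0 fell there, or 15 and 1 with median ratio scaling. Among all genes described 43.1% rose there. The share of chaperones past the poly(A) threshold was 45%, against 35.6% of all genes described. Of 12 NRF2 targets 6 fell and 2 rose, with TKT at -0.56 (SE 0.10), FTH1 at -0.53 (SE 0.14) and NFE2L2, which encodes NRF2, at 0.49 (SE 0.10) in the authors' deposited table. The 3 metallothionein genes fell, with MT1E at -0.92 (SE 0.16), MT1L at -0.71 (SE 0.19) and MT2A at -0.61 (SE 0.15) in the authors' deposited table. All 3 rose by limma after rRNA depletion, where MT2A went from 785, 669 and 608 TPM to 2794, 2747 and 2973 TPM.

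Protein and organelle turnover was led by the proteasome, with 21 of 29 genes down, 0 up and all 29 below 0 (median -0.33, and -0.23 relative to genes of like length and GC content). The core subunits PSMB1, PSMB3 and PSMB4 stood at -0.62 (SE 0.10), -0.61 (SE 0.11) and -0.56 (SE 0.14) in the authors' deposited table. In the rRNA-depleted libraries 10 of the 21 rose by limma and 2 fell, or 8 and 6 with median ratio scaling. Among 22 lysosomal genes 3 rose and 4 fell, with the cathepsins CTSL at 0.53 (SE 0.11), CTSD at -0.54 (SE 0.15) and CTSC at -0.45 (SE 0.07) in the authors' deposited table. Of 11 genes of Ragulator and mTORC1, which signals nutrient supply from the lysosome, 4 fell and FNIP1 rose by 0.98 (SE 0.16) in the authors' deposited table. LAMTOR5 had the largest fall of all genes described, -2.72 (SE 0.21, adjusted p 1.64e-34) or 6.57-fold, and MLST8 and LAMTOR2 stood at -0.61 (SE 0.15) and -0.55 (SE 0.18) in the authors' deposited table. LAMTOR5 was at 11.9, 17.3 and 15 TPM in wild type and at 19.7, 27.5 and 32.5 TPM in knockout after rRNA depletion, higher without overlap, with a limma adjusted p of 0.0682. Among all genes described 63.1% were higher without overlap there. In autophagy 5 of 21 rose, with WIPI1 at 0.53 (SE 0.16) and BECN1 at 0.38 (SE 0.09), and ATG101 fell by 0.54 (SE 0.16) in the authors' deposited table. The lysosomal list had 31.8% of its genes past the threshold and autophagy 28.6%, both under the 35.6% of all genes described. The share for Ragulator and mTORC1 was 45.5%.

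Among 17 genes of the m6A machinery, 4 rose and 1 fell, which is 29.4% against 35.6% of all genes described. HNRNPC, an RNA-binding protein at m6A-dependent sites, rose by 0.65 (SE 0.21, adjusted p 0.0147), the reader YTHDF3 by 0.48 (SE 0.12, adjusted p 0.00118) and the writer-complex subunit CBLL1 by 0.37 (SE 0.10, adjusted p 0.00135) in the authors' deposited table. IGF2BP2, a reader picked out after its values were seen, also rose by 0.37 (SE 0.11, adjusted p 0.00442), and HNRNPA2B1 fell by 0.27 (SE 0.05, adjusted p 1.54e-05) in the authors' deposited table. HNRNPC has a near-identical processed copy, HNRNPCP2, which also rose, by 1.34 (SE 0.36), in the authors' deposited table, so reads may be split between them. Of 23 genes of mRNA decay, which include CCR4-NOT subunits, only UPF3B passed the threshold, at 0.32 (SE 0.10, adjusted p 0.00793), and CNOT7, the most abundant, was at 0.12 (SE 0.07) in the authors' deposited table. That is 4.35% of the list against 35.6% of all genes described.

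In splicing, 8 of 27 hnRNP and SR genes fell and 3 rose, with HNRNPL at 0.89 (SE 0.23), HNRNPAB at 0.80 (SE 0.17), SRSF6 at -0.46 (SE 0.09) and SRSF3 at -0.38 (SE 0.07) in the authors' deposited table. Translation initiation and elongation factors had 12 of 33 down and 2 up. EIF6, which keeps ribosomal subunits apart, fell by 1.07 (SE 0.11, adjusted p 2.74e-20), EIF5A fell by 0.56 (SE 0.10) and the helicase gene EIF4A2 rose by 0.48 (SE 0.07) in the authors' deposited table. EIF6 was also lower in the rRNA-depleted libraries, at 258, 299 and 296 TPM against 567, 563 and 603 TPM in wild type. Among 20 tRNA synthetases 6 rose and 3 fell, with WARS1, which interferon induces, at 0.46 (SE 0.10) and VARS1 at -0.68 (SE 0.14) in the authors' deposited table. The shares that passed were 40.7% for splicing, 42.4% for translation factors and 45% for tRNA synthetases, not far from the 35.6% of all genes described.

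About as many ribosomal protein genes fell in poly(A) RNA as did not pass the threshold. In the cytosolic ribosome 43 of 77 fell and 2 rose, with a median of -0.36, and in the mitochondrial ribosome 33 of 65 fell and 0 rose, with a median of -0.37. RPL41, RPS21 and RPS18 stood at -0.79 (SE 0.13), -0.76 (SE 0.15) and -0.70 (SE 0.14), RPL31 rose by 0.62 (SE 0.18), and MRPL35 and MRPL14 stood at -0.97 (SE 0.14) and -0.95 (SE 0.14) in the authors' deposited table. Relative to genes of like length and GC content the medians shrank to -0.13 for the cytosolic and -0.15 for the mitochondrial ribosome, whose median was -0.20 at a mean of at least 200. In the rRNA-depleted libraries 56 of the 77 cytosolic genes rose and 6 fell by limma, and 30 of the 43 that fell in poly(A) RNA rose there. With median ratio scaling these numbers were 44, 9 and 21. RPS21 was at 332, 283 and 328 TPM in wild type and at 2140, 1997 and 1976 TPM in knockout. Many ribosomal protein genes have processed copies elsewhere in the genome, and how reads were shared among them is not given in the sources used here.

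The cell cycle lists moved in small steps, and the share past the threshold among DNA replication genes (36.4%) was near that of all genes described (35.6%). Of 33 DNA replication genes 11 fell and 1 rose, with GINS1 at -0.61 (SE 0.13), MCM2 at -0.40 (SE 0.08) and RRM2, the most abundant, at 0.33 (SE 0.05) in the authors' deposited table. Of 35 mitotic genes 12 rose and 8 fell, among them ECT2 at 0.48 (SE 0.08), TOP2A at 0.39 (SE 0.09), MYBL2 at -0.88 (SE 0.16) and UBE2C at -0.86 (SE 0.09) in the authors' deposited table. In the list of cell cycle inhibitors and cyclin D partners 4 of 10 fell, led by CDKN2A at -0.59 (SE 0.14), and the cyclin gene CCND1 rose by 1.15 (SE 0.11, adjusted p 1.72e-21) in the authors' deposited table. CDKN2A was at 574, 471 and 679 TPM in wild type and at 178, 172 and 179 TPM in knockout after rRNA depletion, and CCND1 at 436, 347 and 416 TPM against 621, 636 and 598 TPM. Both differed without overlap and in the direction seen in poly(A) RNA. Among all genes described 63.1% were higher and 13.8% lower without overlap.

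Of 54 ZNF genes 14 rose and 5 fell, a share near that of all genes described (35.6%), with a median of 0.17 and with ZNF93 at 1.24 (SE 0.18), ZNF215 at 0.86 (SE 0.18) and ZNF268 at -0.80 (SE 0.19) in the authors' deposited table. Of 15 genes of epigenetic silencing 3 rose, led by ATF7IP at 0.95 (SE 0.13, adjusted p 4.53e-12) at a mean of 1327, and EHMT2 fell by 0.61 (SE 0.19) in the authors' deposited table. Of 63 solute carriers 10 rose and 9 fell, with SLC22A17 at 0.94 (SE 0.18) and SLC52A2 at -0.67 (SE 0.17) in the authors' deposited table. The shares that passed were 30.2% for solute carriers and 26.7% for epigenetic silencing, both under the share of all genes described. Of 8 host genes of small nucleolar RNAs 3 fell, led by SNHG17 at -0.79 (SE 0.09), and GAS5, the most abundant, was at 0.11 (SE 0.11) in the authors' deposited table. That is 37.5% of the list, near the 35.6% of all genes described.

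The same contrast in the rRNA-depleted libraries was tested with limma on log2(TPM + 1) over 14789 genes, of which 5220 (35.3%) passed an adjusted p of 0.05. The reads recovered per library were few, from 266157 to 1267171, and the knockout-labelled libraries were the deeper ones. The median change of all genes tested was 0.41, and that of the genes described here 0.86, so most of them were higher in knockout on this scale: 2264 of 5255 rose (43.1%) and 488 fell (9.29%). With median ratio scaling the median of all genes was 0.11, and 1573 of the 5255 rose while 758 fell, so directions in these libraries are given with that split where it shifts. Without knockout-labelled library 3, which leaves 1 knockout sample assumed to vary like the others, 1663 of all genes tested passed in place of 5220. Libraries that did not overlap were seen in the higher direction for 3318 genes (63.1%) and in the lower for 728 (13.8%). Set against these shares, the 883 genes that rose in poly(A) RNA had 542 that also rose by limma (61.4%) and 40 that fell (4.53%), against 40.5% and 8.3% of the 3387 genes not called in poly(A) RNA. With median ratio scaling 404 of the 883 rose and 62 fell, and of the genes not called 923 rose and 461 fell. Of the 985 tested genes that fell in poly(A) RNA, 167 also fell (17%) and 350 rose (35.5%), and with median ratio scaling 235 fell and 246 rose. In all, 390 genes passed both thresholds in opposite directions, or 308 with median ratio scaling.

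The most changed genes were followed one by one into the rRNA-depleted libraries. All 10 of the genes that rose most had the same sign and non-overlapping libraries, and 9 passed the limma threshold, or 7 with median ratio scaling, without IFITM1 and NPTX1. Of the 10 that fell most, 5 had the same sign, 4 of them had non-overlapping libraries in that direction, and 3 passed the threshold, or 4 with median ratio scaling, EPS8L2 included. The 3 were TES, GFRA1, at 16.8, 16 and 21 TPM in wild type against 4.5, 6.51 and 6.01 TPM, and PPME1, at 101, 123 and 114 TPM against 52.9, 51.2 and 65.3 TPM. ANXA3, TIMM21 and CNDP2 overlapped between genotypes. The gap between rises and falls was not tested, and the rise of the median in the rRNA-depleted libraries moves with it.

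**Figure D3:**
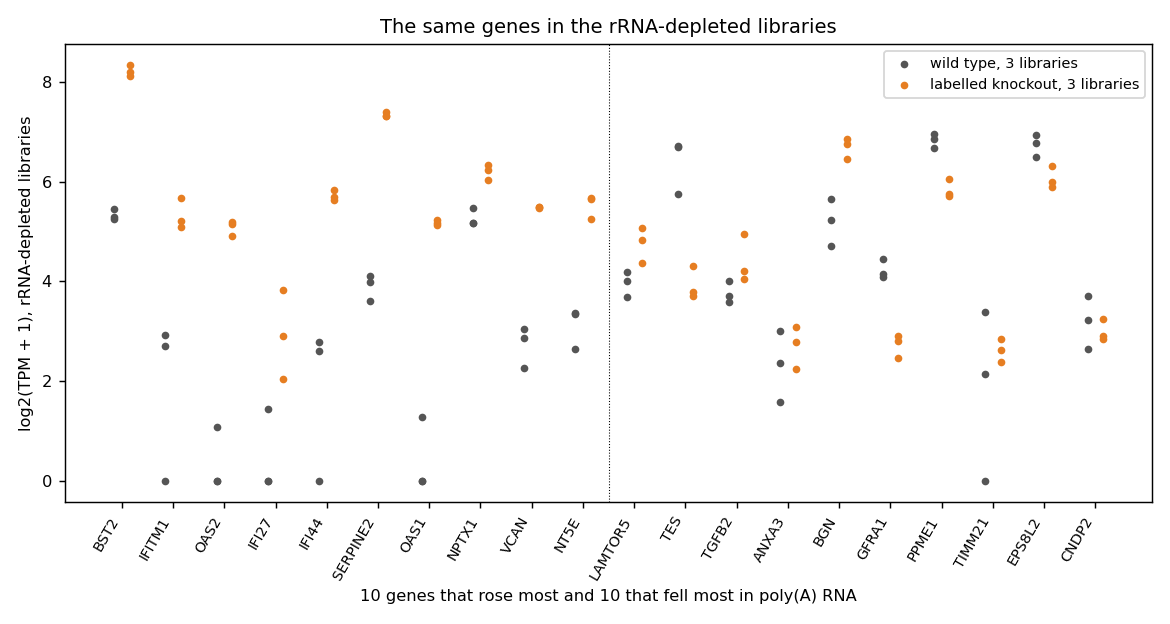
Level in each rRNA-depleted library, as log2(TPM + 1), of the 10 genes that rose most (left of the dotted line) and the 10 that fell most (right) in poly(A) RNA; grey points are the 3 wild-type and orange points the 3 knockout-labelled libraries. All 10 on the left are higher in every knockout-labelled library, while on the right TES, GFRA1, PPME1 and EPS8L2 are lower and LAMTOR5, TGFB2 and BGN higher.

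What the changed genes share beyond function was examined through transcript length, base composition and position. Genes were ranked by the length of a single GENCODE 29 transcript each, the one with the longest coding sequence. The shortest 20% of genes (median 1156 bases) had a median log2 fold change of -0.26, with 41% of its genes down and 7.98% up. The longest 20% (median 6870 bases) had a median of 0.15, with 7.03% down and 24.2% up. The groups of 20% between had medians of -0.06, 0.03 and 0.10. Across genes (not independent replicates) the Spearman correlation of length with the poly(A) change was 0.38, and with the rRNA-depleted change 0.05. GC content went the other way, with a median of 0.12 in the lowest 20% (median GC 38.2%) and -0.18 in the highest (58.6%), and Spearman correlations of -0.29 in poly(A) and -0.40 in rRNA-depleted RNA. Of the 10 lists with a median of -0.3 or lower, 2 (collagens and glycolysis) were still at or below it relative to genes of like length and GC content, while the antiviral effectors stood at 1.45. The part of length and base composition in these lists was not tested further.

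The letters GGACT, a frequent form of the m6A motif, were counted per kilobase of the same transcripts. The 20% of genes with the fewest had a median log2 fold change of -0.00 and the 20% with the most -0.11, and the Spearman correlation with the poly(A) change was -0.07 across genes. Methylation itself was not measured in these libraries. The mean normalized count had a Spearman correlation of -0.02 with the change.

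**Figure D4:**
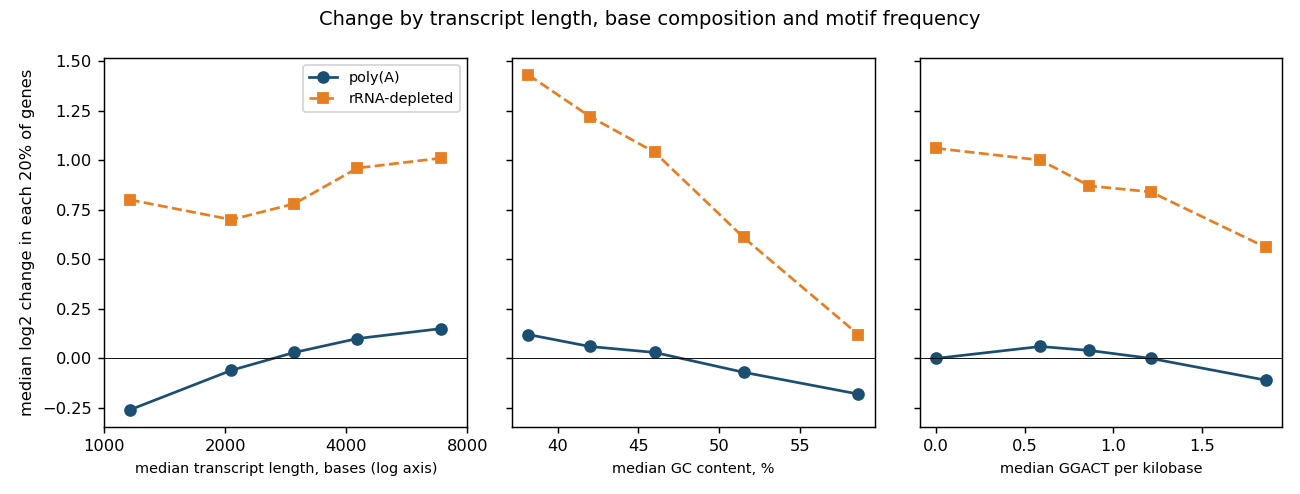
Median log2 change in each successive 20% of the 5257 genes ranked by transcript length (log axis), GC content and GGACT per kilobase, with blue circles for poly(A) RNA (knockout over wild type) and orange squares for rRNA-depleted RNA (log2(TPM + 1), knockout minus wild type). The poly(A) line rises from -0.26 to 0.15 with length and falls from 0.12 to -0.18 with GC content.

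Position on the chromosomes also went with the change. On chromosome 15, 65 of 173 genes rose (37.6%) and 4 fell (2.31%), with a median of 0.22, and all 8 windows of 10 Mb that hold at least 5 of the genes had a median above 0. On chromosome 20, 16 of 176 rose (9.09%) and 77 fell (43.8%), with a median of -0.23 and all 7 windows below 0. Chromosomes 2, 10 and 5 had medians of 0.14, 0.12 and 0.11, chromosome 10 with all 13 windows above 0, and chromosome 6 had a median of -0.16 with 35.9% of its genes down. Relative to genes of like length and GC content the medians were 0.17 for chromosome 15 and -0.21 for chromosome 20. In the rRNA-depleted libraries the same relative medians were -0.12 and -0.05. Over 23 chromosomes the Spearman correlation of the medians in the poly(A) and rRNA-depleted libraries was 0.68 as measured and 0.24 relative to genes of like length and GC content. DNA copy number was not measured in these libraries, and its part in these medians was not tested. The genes of the lists above were compared with genes of like length and GC content, but not with genes of the same chromosome. The part of position in the changes of single list genes and in list medians was therefore not tested.

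**Figure D5:**
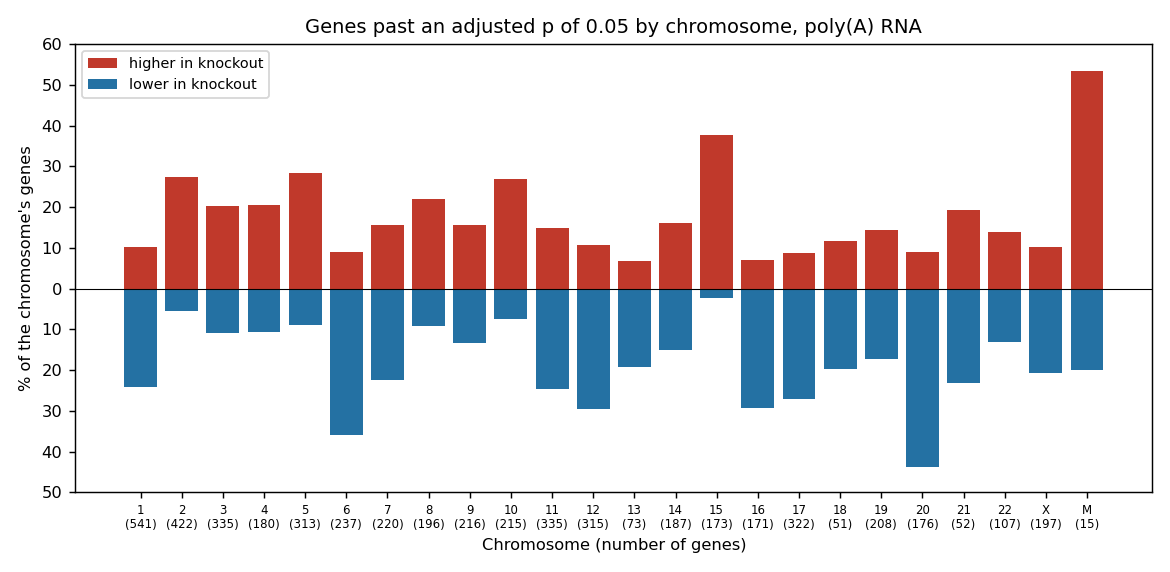
Share of the genes of each chromosome that rose (red, up from 0) or fell (blue, down from 0) in knockout at an adjusted p under 0.05 in the authors' deposited table; the number of genes stands in brackets and M is the mitochondrial genome. Chromosome 15 has 37.6% up and 2.31% down, and chromosome 20 has 9.09% up and 43.8% down.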

How the data were processed

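Poly(A) RNA of HMC3 cells was compared through the authors' deposited table, which per the file headers holds for each gene the mean normalized count (a signal pooled over libraries), the log2 fold change and its SE, the Wald statistic (a score) and the p-value before and after adjustment. Per the submitters' processing notes, Trimmomatic, STAR, DESeq2 and hg38 were used, with no versions given. Whether counting used strand is not given in the sources used here. The poly(A) depth per library is unknown, since the table holds no single-library value. Had counts been present, a count model would have been fitted to them. The authors deposited TPM, each gene's share of a library per length, for the libraries made after rRNA depletion.

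The limma package 3.58.1 (R 4.3.3; lmFit, eBayes with trend) was applied to log2(TPM + 1), a scale that understates the change of low genes. Genes were tested where 3 or more libraries reached 1 TPM, with Benjamini-Hochberg adjustment at 0.05. Gene lengths, positions, GC content and transcript letters came from GENCODE 29 (GRCh38), which matched all 5257 genes described and 56927 rows of the table. Transcript length, GC content and letters are those of the transcript with the longest coding sequence, or of the longest transcript where a gene has no coding sequence. TPM multiplied by length gave whole reads, to within 0.02 reads, for 90.9% of values above 0. The recovered depth was 407900, 266157 and 487272 reads in wild type and 1038575, 1267171 and 512627 reads in knockout-labelled libraries 1 to 3. Knockout-labelled libraries 1 and 2 differed by no more than sampling noise (chi-square of 1.02 per degree of freedom over 10120 genes, p = 0.065, against 1.16 to 1.53 for other pairs) and were averaged as 1 sample. On simulated reads for 14673 genes, with 200 changed by 2 on the log2 scale, the step recovered 78 and called 0 others. The simulation held sampling noise alone and as many genes up as down. It therefore does not give the number of false calls in the real libraries, most of which varied by more.

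Promoters came from RefSeq (GRCh38.p14), the first entry per symbol, with an entry for 4404 of the 5257 genes. The labels' genotype and library type set the groups. The genes, lists and tests were chosen with earlier results of these data known. Named genes were METTL3, ZBP1, the 10 that rose and the 10 that fell most, in each list the 3 that rose and the 3 that fell most and the most abundant, and cell type markers, and 2 of these genes are not reported here. Genes that are exceptions to a list's direction were added after their values were seen. The alternatives were other thresholds, mean count minimums, pseudocounts, filters and scalings, a replicate block and leaving out libraries, and 3 that compare list genes with genes of like length or GC content were added after the data were seen. Other steps used Python 3.11.15, numpy 2.4.6, pandas 2.3.3, scipy 1.17.1 and matplotlib 3.10.9.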

Additional observations from a re-analysis of the deposited data

How the results depend on the processing

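The count of poly(A) genes past the threshold, 1869 (883 up, 986 down), became 112 (86 and 26) at an absolute log2 change of 1 or more, 833 (388 and 445) at a mean of at least 200, where fewer genes are tested, and 105 (73 and 32) when tested against a 1.5-fold change. Of the 50 lists with at least 5 genes, 19 had a median of at least 0.3 in size. That number was 11 at a mean of at least 200, where fewer lists keep 5 genes. It was 12 relative to genes of like transcript length and 10 relative to genes of like length and GC content. The 9 lists at 0.3 or above became 4 at a mean of at least 200. The lists of sensors, JAK-STAT, ISG15, NF-kB, TGF-beta and WNT and NOTCH genes have no median there. The antiviral effectors (1.33) and mitochondrial messages (0.44) stayed, antigen presentation was at 0.24, and collagen processing (0.30) and matrix proteases (0.40) entered. The 10 at -0.3 or below became 5 relative to like length and 3 relative to like length and GC content, of which 2 were among the 10, so part of the downward lists moves with transcript length. The NF-kB list median turned to -0.25 at a mean of at least 10. The 5220 genes called by limma in the rRNA-depleted libraries became 2242 at an adjusted p under 0.01. Leaving out 1 library gave 1663 to 5185, the lowest without knockout-labelled library 3, when 1 knockout sample remained. The 1104 called poly(A) genes with the same direction in those libraries (779 up, 325 down) became 88 (76 and 12) at an absolute log2 change of 1 or more. The cause of these shifts was not tested where none is given. With the replicate number as a block, limma called 6037 genes and 1103 had the same direction. Deviations of same-numbered libraries from their group means had correlations of -0.02 to 0.02. At this depth such deviations hold much sampling noise, so these correlations cannot tell whether same-numbered libraries share more than a number. No paired analysis was possible for the poly(A) comparison because its table holds no single-library value. The other 64 counts stayed within 1.5 times. Of 333 list medians under an alternative, 20 changed sign and 39 crossed 0.3 in size. At 266157 to 1267171 reads per library, changes of genes with few TPM were not resolved in the rRNA-depleted libraries.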
